A study of Homo sapiens with 2 samples.

Results

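The YAP and TEAD target genes described here are 10 genes taken by symbol: ANKRD1, CYR61 (listed as CCN1), CTGF (listed as CCN2), AMOTL1, AMOTL2, AJUBA, LATS2, AXL, F3 and TNFRSF12A. All 10 were found among the 60527 genes of the deposited table. The 2 groups were SK-MEL-2 cultures by their labels (a human melanoma line), given the solvent DMSO or 1.75 µM JNJ-7706621, each for 48 h and each measured by 1 RNA-seq library of total RNA. JNJ-7706621 is a small molecule that blocks Aurora and cyclin-dependent kinases. The labels give no genetic change in either group, and the title of the series concerns the binding of the protein AUF1 to mRNA.

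YAP (gene YAP1) and TAZ (gene WWTR1) are transcriptional coactivators that do not bind DNA themselves. They act through the TEAD factors, which recognise the letters GGAATG. When the Hippo kinases MST and LATS are active, they phosphorylate YAP and TAZ and keep them out of the nucleus. Stiff matrix, cell spreading and actin tension are known to favour nuclear YAP, and CCN1, CCN2 and ANKRD1 are widely used as readouts of its activity. Several targets, among them LATS2 and the angiomotin genes, encode inhibitors of YAP and so form a feedback loop.

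Levels are given in FPKM (fragments per kilobase of exon per 1000000 fragments), which correct for exon length and library size. The recovered library totals were 23377161 reads (DMSO) and 22817719 reads (JNJ-7706621). Only 1 library per group was analysed here, so no difference has a replicate check and no test was run. The deposited table has 2 further columns, by their names second replicates of these groups, which match no sample described here and were not used. Ranges in parentheses are 95% intervals of counting error only, which leave out the spread between cultures. A gene was called at least 2-fold higher or lower where log2(FPKM + 1) in JNJ-7706621 minus that in DMSO was at least 1 or at most -1, provided that its FPKM averaged 1 or more over both libraries. In a cell line, a change in the share of expressing cells and a change in RNA per cell cannot be told apart in these values.

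The markers of the labelled cell type were mostly at or near 0 in both libraries. Of 8 melanocyte markers 2 reached a mean FPKM of 1 (PMEL and MITF), and all 8 summed to 4.92 FPKM in DMSO against 6.25 FPKM in JNJ-7706621. SOX10 had 1 and 0 reads, and TYR and S100B were at 0 in both. The 5 epithelial markers all reached a mean FPKM of 1 and summed to 1962 and 1979 FPKM, far above the melanocyte markers. Most of that sum was KRT8 (720 and 703 FPKM) and KRT18 (1117 and 1123 FPKM). EPCAM stood at 55.7 FPKM in DMSO against 59.4 FPKM in JNJ-7706621, CDH1 at 49.8 and 67.8 FPKM and KRT19 at 19.2 and 26.7 FPKM. The 6 fibroblast, 4 endothelial and 4 leukocyte markers summed to 0.25, 0.129 and 0.794 FPKM in DMSO and to 1.30, 0.244 and 1.33 FPKM in JNJ-7706621, with 0 of these lists' genes at a mean FPKM of 1. The part of cell identity in the levels below was not tested.

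The 10 target genes did not differ in 1 common direction. ANKRD1 was 9.08 times as high in the JNJ-7706621 library, TNFRSF12A 1.75 times and AJUBA 1.46 times, while CCN2 and CCN1 stood at 0.512 and 0.656 of their DMSO level. ANKRD1 was the 1 target called 2-fold higher, against 2.39% of the 13241 measured genes, and 0 were called 2-fold lower, against 1.36% of those genes. Of the 10, 4 had a difference above 0 (ANKRD1, TNFRSF12A, AJUBA and AXL), against 49.6% of measured genes. The median log2 difference of the targets was -0.06, beside -0.0032 over all measured genes.

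Counting intervals separated the targets into 3 sets. The interval of the ratio lay above 1 for 4 targets, where 32.8% of the measured genes with recovered reads had such an interval, and below 1 for 3 targets (AMOTL2, CCN1 and CCN2), where 33.2% had one. For AMOTL1, LATS2 and F3 the interval held 1. The shares among the targets were thus close to those among all genes, so the counts show nothing particular to the list. The sum of the 10 levels was 92.5 FPKM in DMSO against 110 FPKM in JNJ-7706621, and TNFRSF12A alone made up 26.2% and 38.4% of it.

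**Figure D1:**
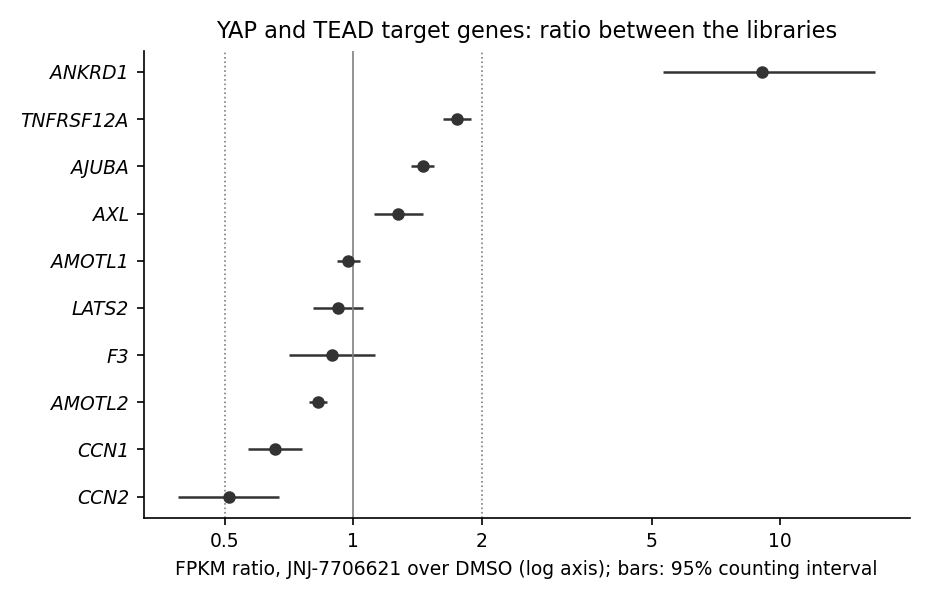
Ratio of FPKM, JNJ-7706621 over DMSO, of each of the 10 target genes on a log axis, from 1 library per group; points are ratios, bars their 95% counting intervals, the solid line is a ratio of 1 and the dotted lines are 0.5 and 2. ANKRD1 lies at 9.08, far to the right of the other 9 genes, which lie between 0.512 and 1.75.

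Promoter sequence is shown for 3 targets that differ in direction: ANKRD1 (higher), CCN2 (lower) and F3 (interval holding 1). The stretches come from RefSeq on GRCh38.p14, all on the minus strand, written 5′ to 3′ and counted from the RefSeq start site, with the base before it at -1. They stop before the gene's own annotated exons, except that the last base printed for ANKRD1, which completes its TGATTCA, is the first base of its annotated exon. Capitals mark GGAATG, the TEAD letters, and TGANTCA (N is any base), a loose form of the letters of AP-1. AP-1 is a dimer of JUN and FOS family proteins known to share enhancers with TEAD. Its strict letters have C or G at N. The stretches lie at chr10:90921276-90921337 for ANKRD1, chr6:131951374-131951622 for CCN2 and chr1:94541801-94542009 for F3.
ANKRD1: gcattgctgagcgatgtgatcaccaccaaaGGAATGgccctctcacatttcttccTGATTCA
CCN2: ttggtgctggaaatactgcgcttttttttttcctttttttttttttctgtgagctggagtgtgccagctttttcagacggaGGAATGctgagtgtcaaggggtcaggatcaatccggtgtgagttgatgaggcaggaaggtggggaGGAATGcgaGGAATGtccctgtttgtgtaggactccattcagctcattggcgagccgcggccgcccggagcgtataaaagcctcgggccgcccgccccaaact
F3: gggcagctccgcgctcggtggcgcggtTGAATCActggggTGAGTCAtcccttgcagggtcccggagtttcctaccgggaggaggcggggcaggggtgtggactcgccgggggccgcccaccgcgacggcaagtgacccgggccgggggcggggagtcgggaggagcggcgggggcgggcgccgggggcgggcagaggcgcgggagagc

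CCN2 holds GGAATG at -169, -104 and -95, the last pair 3 bases apart. ANKRD1 holds it at -220 and again at -128, the second inside the annotated first exon and not printed, and TGANTCA at -195. F3 holds TGANTCA at -223 and -210 and no GGAATG. Of the 10 targets 8 had entries in the promoter table, with 11 windows of 300 bases (250 before and 50 after a start), and CCN1 and TNFRSF12A had none. GGAATG, searched on both strands, was in a window of 6 of these 8 genes (ANKRD1, CCN2, AJUBA, AMOTL2, AXL and LATS2), against 16.7% of the 27305 genes in that table. For AJUBA, AMOTL2 and AXL it was in 1 of the 2 windows, that of the start further into the gene. The window of their outer start held none. For LATS2 it lay after the start, at 10. By window it was in 6 of 11, against 14% of all 35116 windows. TGANTCA, also on both strands, was in windows of 2 of the 8 (ANKRD1 and F3), against 9.37% of genes and 7.71% of windows. Only TGAGTCA of F3, at -210, has the strict AP-1 letters. TGATTCA of ANKRD1 and TGAATCA of F3 do not, and shares for the strict letters were not counted. GGAATG was thus present both in targets that were higher and in targets that were lower. These are letter matches in a short window, and they show neither binding nor its absence.

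ANKRD1 encodes a cardiac ankyrin repeat protein that acts in the nucleus and at the sarcomere. The gene (ENSG00000148677) lies at chr10:90912096-90921276 on the minus strand of GRCh38. Its level was 0.324 FPKM (15 reads) in DMSO against 2.95 FPKM (133 reads) in JNJ-7706621, giving a ratio of 9.08 (5.31 to 16.7). In DMSO it was above only 0.332% of the measured genes, and in JNJ-7706621 above 30.7% of them. It passed the filter on low values only through the JNJ-7706621 library. Its log2 difference of 1.57 exceeded that of 99.3% of measured genes, but was 0.58, short of the rule of size, with a pseudocount of 5. No exon of another gene overlaps it in the annotation.

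CCN1 and CCN2 encode secreted matricellular proteins that bind integrins and act on adhesion, angiogenesis and fibrosis. Both were lower in JNJ-7706621. CCN1 (ENSG00000142871, chr1:85580761-85583962, plus strand) stood at 8.67 FPKM (495 reads) in DMSO against 5.69 FPKM (317 reads) in JNJ-7706621, giving a ratio of 0.656 (0.568 to 0.757). CCN2 (ENSG00000118523, chr6:131948176-131951373, minus strand) stood at 3.07 FPKM (168 reads) and 1.57 FPKM (84 reads), a ratio of 0.512 (0.389 to 0.670). Neither passed the rule of size, with log2 differences of -0.53 and -0.66. The difference of CCN2 lay at percentile 4.92 of measured genes, and its level was above 31.6% of them in DMSO and above 12.1% in JNJ-7706621. Exon lengths spaced 167 bases apart also gave whole reads for CCN2, so its read numbers, unlike its FPKM, may be off by steps of 7.14%.

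The other CCN genes showed no common direction. CCN3 was 3.13 times as high in JNJ-7706621 (2.5 to 3.96), at 1.67 FPKM in DMSO against 5.23 FPKM in JNJ-7706621, and was called 2-fold higher. CCN5 stood at 4.08 and 2.27 FPKM, a ratio of 0.556 (0.476 to 0.649). CCN4 was at 0 in both libraries, which allows up to 0.0247 and 0.0253 FPKM at 3 reads, and CCN6 had 10 and 11 reads. Among relatives of ANKRD1, ANKRD2, a muscle ankyrin repeat gene, stood at 1.00 and 2.90 FPKM, a ratio of 2.89 (1.94 to 4.41) on 34 and 96 reads. ANKRD23 stood at 0.751 and 0.609 FPKM, with 81.2% of its exon length overlapped by other genes. Of the 6 listed relatives 3 reached a mean FPKM of 1, of which 1 was called 2-fold higher and 0 lower. Over all measured genes the shares were 2.39% and 1.36%, and 3 genes are too few to set beside them.

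**Figure D2:**
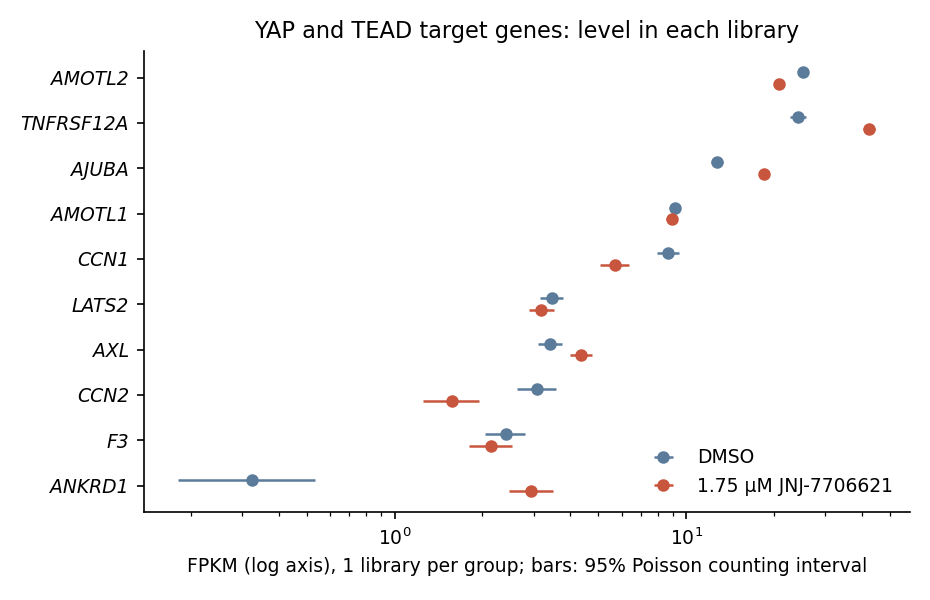
Level in FPKM (log axis) of the 10 target genes in the DMSO library (blue) and the JNJ-7706621 library (red), 1 library each; bars are 95% Poisson counting intervals and genes are ordered by their DMSO level. The red point lies well to the right of the blue one for ANKRD1 (0.324 against 2.95 FPKM) and to its left for CCN1 and CCN2.

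TNFRSF12A encodes Fn14, the receptor of the cytokine TWEAK (gene TNFSF12), and signals through TRAF adaptors. The gene (ENSG00000006327) lies at chr16:3018445-3022383 on the plus strand. It stood at 24.2 FPKM (1045 reads) in DMSO against 42.4 FPKM (1786 reads) in JNJ-7706621, giving a ratio of 1.75 (1.62 to 1.89). Its log2 difference of 0.78 did not pass the rule of size, and 7.73% of measured genes differed by at least as much in either direction. The ligand gene TNFSF12 stood at 1.93 FPKM in DMSO against 1.88 FPKM in JNJ-7706621, with 33.2% of its exon length overlapped by other genes. The adaptor gene TRAF2 stood at 8.30 and 10.7 FPKM, a ratio of 1.29 (1.17 to 1.43). The receptor mRNA was thus the most different of these 3.

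AXL encodes a receptor tyrosine kinase whose ligand is GAS6. The gene (ENSG00000167601, chr19:41219203-41261766, plus strand) stood at 3.42 FPKM (410 reads) in DMSO against 4.35 FPKM (510 reads) in JNJ-7706621, giving a ratio of 1.27 (1.12 to 1.45). Its log2 difference was 0.28, and 46% of measured genes differed by at least as much. The related receptor genes were lower in level: TYRO3 stood at 0.385 and 1.04 FPKM, a ratio of 2.69 (2.12 to 3.44), and MERTK at 0.0842 and 0.259 FPKM on 9 and 27 reads. AXL made up 87.9% of the summed FPKM of these 3 receptors in DMSO and 77.1% in JNJ-7706621. The ligand gene GAS6 had a ratio of 1.02 (0.867 to 1.21). PROS1, which encodes protein S, a ligand of the related receptors, had one of 0.872 (0.682 to 1.11).

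F3 encodes tissue factor, the cell surface receptor that starts blood coagulation by binding factor VII. The gene (ENSG00000117525, chr1:94529225-94541800, minus strand) stood at 2.40 FPKM (162 reads) in DMSO against 2.14 FPKM (141 reads) in JNJ-7706621, giving a ratio of 0.892 (0.706 to 1.12). No difference beyond counting error was seen at this depth. Its inhibitors and partners were less even. TFPI, the main inhibitor of tissue factor, stood at 4.54 and 2.99 FPKM, a ratio of 0.659 (0.602 to 0.721). TFPI2, a related protease inhibitor, stood at 142 and 394 FPKM, a ratio of 2.77 (2.70 to 2.84), and was the 1 gene of the list of ligands, receptors and inhibitors called 2-fold higher. PROCR, the receptor of protein C, had a ratio of 1.43 (1.29 to 1.6), while F7 and F10, the clotting factors made mainly in liver, had 3 and 5 reads in DMSO and 5 and 0 in JNJ-7706621.

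The integrins and coreceptors known to bind CCN proteins went both ways. ITGAV stood at 12.9 FPKM in DMSO against 12.0 FPKM in JNJ-7706621, and ITGB5 at 40.5 and 34.8 FPKM, a ratio of 0.858 (0.826 to 0.890). ITGA6 went the other way, at 16.4 and 23.1 FPKM, a ratio of 1.40 (1.33 to 1.48). ITGB3 had 2 and 6 reads, and the Wnt coreceptor gene LRP6 had a ratio of 0.801 (0.740 to 0.867). Of the 16 listed ligands, receptors and inhibitors, 11 were measured, 5 of them above 0, with a median log2 difference of -0.02. Over all measured genes 49.6% lay above 0 and 2.39% were called 2-fold higher.

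The 4 targets that feed back on the Hippo pathway were split. AJUBA, a LIM domain protein that binds LATS kinases and restrains them, was higher. The gene (ENSG00000129474, chr14:22971174-22982642, minus strand) stood at 12.7 FPKM (1749 reads) in DMSO against 18.5 FPKM (2485 reads) in JNJ-7706621, giving a ratio of 1.46 (1.37 to 1.55). Its log2 difference was 0.51, and 20.3% of measured genes differed by at least as much. LIMD1, a related LIM protein with the same known role, stood at 9.30 and 11.2 FPKM, a ratio of 1.21 (1.15 to 1.27), and WTIP, another relative, at 0.157 and 0.18 FPKM. AJUBA was the most abundant of these 3, at 57.3% of their summed FPKM in DMSO and 61.8% in JNJ-7706621.

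AMOTL1 and AMOTL2 encode angiomotin-like scaffolds of cell junctions that bind YAP and hold it in the cytoplasm. AMOTL2 (ENSG00000114019, chr3:134355874-134375479, minus strand) stood at 25.1 FPKM (3511 reads) in DMSO against 20.7 FPKM (2832 reads) in JNJ-7706621, giving a ratio of 0.826 (0.786 to 0.869). AMOTL1 (ENSG00000166025, chr11:94706431-94876753, plus strand) stood at 9.15 FPKM (2146 reads) and 8.91 FPKM (2040 reads), a ratio of 0.974 (0.916 to 1.04). AMOTL2 was thus slightly lower and AMOTL1 within counting error, although 48.3% of measured genes differed by as much as AMOTL2. With the dependence on exon length taken off, the log2 difference of AMOTL1 turned from -0.03 to 0.04. AMOT, the founding member, had 11 and 13 reads, so AMOTL2 made up 73.2% of the summed FPKM of the 3 genes in DMSO and 69.8% in JNJ-7706621.

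LATS2 encodes a kinase that phosphorylates YAP and TAZ. The gene (ENSG00000150457, chr13:20973032-21061547, minus strand) stood at 3.46 FPKM (454 reads) in DMSO against 3.19 FPKM (408 reads) in JNJ-7706621, giving a ratio of 0.921 (0.803 to 1.05) whose interval held 1. Its relative LATS1 stood at 3.05 and 2.54 FPKM, a ratio of 0.832 (0.737 to 0.938). LATS2 made up 53.1% of the sum of both kinases in DMSO and 55.6% in JNJ-7706621. The level of LATS1 was thus 0.882 of that of LATS2 in DMSO and 0.797 of it in JNJ-7706621.

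The order of the targets by level differed at both ends. In DMSO it ran from AMOTL2 and TNFRSF12A, whose counting intervals overlapped, through AJUBA, AMOTL1, CCN1, LATS2, AXL, CCN2 and F3 to ANKRD1. Neighbours from LATS2 to F3 overlapped, as did AMOTL1 and CCN1. In JNJ-7706621 TNFRSF12A stood alone at the top, followed by AMOTL2, AJUBA, AMOTL1, CCN1, AXL, LATS2, ANKRD1, F3 and CCN2. There the intervals of LATS2 and ANKRD1, of ANKRD1 and F3 and of F3 and CCN2 overlapped. CCN2 and ANKRD1 thus traded places: CCN2 had rank 8 in DMSO and rank 10 in JNJ-7706621, and ANKRD1 the reverse.

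**Figure D3:**
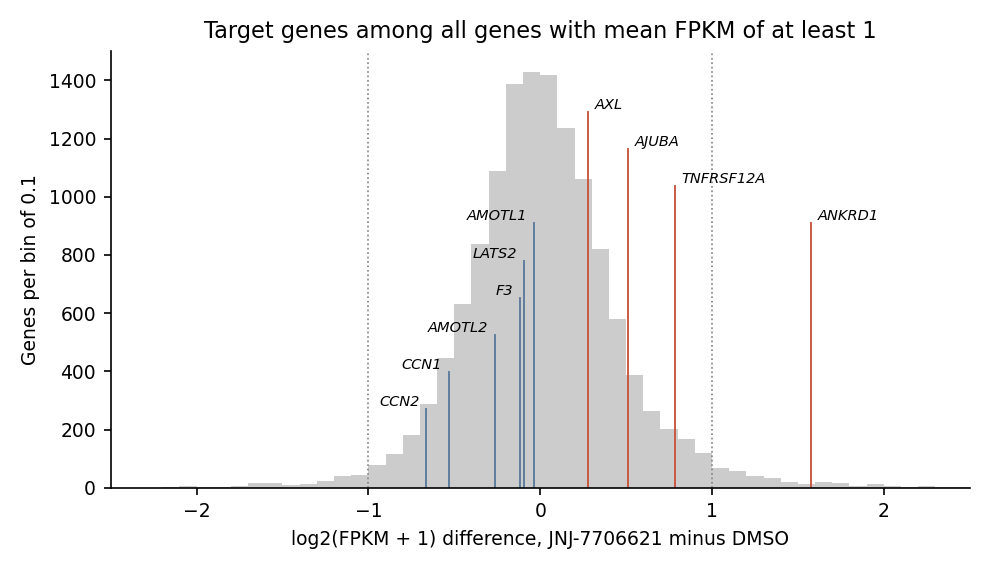
Distribution of the log2(FPKM + 1) difference, JNJ-7706621 minus DMSO, over the 13241 measured genes (grey, genes per bin), with each target gene as a vertical line (red above 0, blue below 0) whose height only sets its label apart; dotted lines mark the rule of size and the axis leaves out the outermost genes. ANKRD1 at 1.57 lies in the right tail, and 9 of the 10 targets lie inside the dotted lines.

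The transcription factors of the pathway were mostly lower in JNJ-7706621. YAP1 stood at 18.6 FPKM in DMSO against 18.5 FPKM in JNJ-7706621, giving a ratio of 0.991 (0.939 to 1.05), so its mRNA was level within counting error. WWTR1, which encodes TAZ, stood at 16 and 12.8 FPKM, a ratio of 0.798 (0.757 to 0.842). TEAD1 was the most abundant TEAD gene, at 15.7 and 10.7 FPKM, a ratio of 0.680 (0.647 to 0.715). TEAD2 was at 6.49 FPKM in DMSO against 4.85 FPKM in JNJ-7706621 and TEAD4 at 9.16 against 8.00 FPKM, while TEAD3 went the other way at low values, 1.22 and 1.87 FPKM. The 4 TEAD genes together summed to 32.6 FPKM in DMSO against 25.4 FPKM in JNJ-7706621.

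Of the VGLL genes, whose proteins bind TEAD in place of YAP, VGLL4 was the 1 that was measured. VGLL4, known as a repressor of TEAD activity, stood at 8.11 FPKM in DMSO against 12.5 FPKM in JNJ-7706621, giving a ratio of 1.54 (1.44 to 1.65), with 23.7% of its exon length overlapped by other genes. VGLL1 and VGLL2 were at 0 in both libraries and VGLL3 had 41 and 36 reads. Among the 10 listed factors 7 were measured, 0 were called in either direction, 2 lay above 0 and the median log2 difference was -0.18. Among all measured genes 2.39% were called higher, 1.36% lower and 49.6% lay above 0. Protein level, phosphorylation and location of YAP and TAZ were not measured.

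Hippo kinases and their upstream regulators went both ways. Of 27 listed genes 21 were measured, 0 were called 2-fold higher or lower, 11 lay above 0 and the median log2 difference was 0.03. The shares over all measured genes were 2.39% higher, 1.36% lower and 49.6% above 0. The genes with the largest differences included WWC1, the scaffold KIBRA that activates LATS, at 14.7 FPKM in DMSO against 26.4 FPKM in JNJ-7706621, giving a ratio of 1.79 (1.72 to 1.87). MAP4K4 and MINK1, kinases that can act on LATS in parallel to MST, had ratios of 1.70 (1.63 to 1.78) and 1.53 (1.43 to 1.63), and MAP4K2 one of 1.59 (1.40 to 1.80). TAOK1, which activates MST, was lower, at 6.83 and 3.68 FPKM, a ratio of 0.539 (0.505 to 0.575).

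The core kinases were named whatever their values and the genes above for their large differences, so their sizes are not compared. STK3 (MST2) stood at 2.35 FPKM in DMSO against 2.10 FPKM in JNJ-7706621, and STK4 (MST1) at 5.56 and 7.05 FPKM, a ratio of 1.27 (1.17 to 1.37). NF2, which encodes the tumour suppressor merlin, stood at 2.88 and 3.39 FPKM, a ratio of 1.18 (1.04 to 1.33). The STRIPAK phosphatase complex removes the activating phosphate from MST kinases. Over its 10 measured genes the median log2 difference was -0.02, with 0 called, against 2.39% higher and 1.36% lower over all measured genes. Its most different subunit gene was STRIP2, at 0.975 and 2.60 FPKM, a ratio of 2.67 (2.18 to 3.28) that fell short of the rule of size at 0.87. STRN, MOB4 and SIKE1 lay between -0.34 and -0.32 on the log2 scale.

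**Figure D4:**
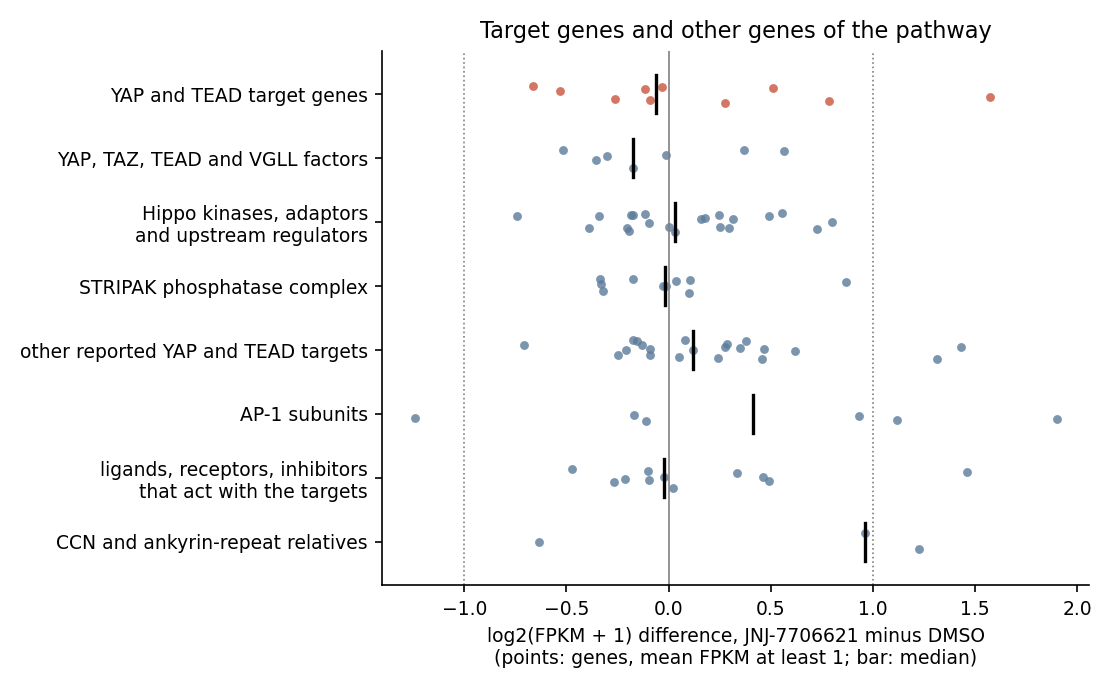
Log2(FPKM + 1) difference, JNJ-7706621 minus DMSO, of measured genes in the target list (red) and in 7 other lists of the pathway (blue); each point is a gene, black bars are medians, dotted lines mark the rule of size and the vertical position within a list is random. The bar of the targets lies at -0.06, and the points past the dotted lines belong to the targets, the other reported targets, the AP-1 subunits, the ligand list and the CCN and ankyrin list.

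Further genes reported as YAP and TEAD targets also went both ways. Of 22 listed genes 21 were measured, and their median log2 difference was 0.12. Of the 21, 2 were called 2-fold higher, 0 lower and 13 lay above 0, against 2.39%, 1.36% and 49.6% of all measured genes. AREG, an EGF receptor ligand, was among those called higher, at 35.6 FPKM in DMSO against 89.8 FPKM in JNJ-7706621, giving a ratio of 2.52 (2.37 to 2.69). BIRC5, the mitotic protein survivin, and GADD45A, a stress-induced gene, had ratios of 1.56 (1.47 to 1.66) and 1.41 (1.27 to 1.56). IGFBP3, which binds insulin-like growth factors, was the most different the other way, at 449 and 275 FPKM, a ratio of 0.611 (0.602 to 0.620).

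AP-1 subunits, whose dimers share many enhancers with TEAD, differed in both directions. FOSL1 stood at 1.5 FPKM in DMSO against 8.31 FPKM in JNJ-7706621, giving a ratio of 5.56 (4.26 to 7.34), and JUN at 2.46 and 6.50 FPKM, a ratio of 2.65 (2.23 to 3.15). Both were called 2-fold higher. JUNB had a ratio of 2.03 (1.77 to 2.33) but a log2 difference of 0.93. JUND, the most abundant subunit in DMSO, was called lower, at 45.7 and 18.7 FPKM, a ratio of 0.410 (0.377 to 0.444). FOSL2 stood at 20.9 and 18.5 FPKM. Of 10 listed subunits 6 were measured, with 2 called higher and 1 lower, against 2.39% and 1.36% of all measured genes. Of the 6, 3 lay above 0, against 49.6% of all measured genes, with a median of 0.41. That median depends on the filter: it was -0.029 with no filter and -0.17 over the 3 subunits with a mean FPKM of at least 5.

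Genes close to the targets were compared by position, a set chosen after the values of the targets were seen: the nearest measured gene on either side, where it does not overlap the target and lies within 10 kb. There were 5 such genes, and 0 of them differed beyond counting error in the direction of their target. RPP30 was within counting error, and DDAH1, HCFC1R1, AL132780.2 and HNRNPUL1 differed the opposite way to their target. Over all measured genes with recovered reads, 32.8% had an interval above 1 and 33.2% one below 1. With 5 genes these counts are not read as a result. RPP30 lies 3.54 kb from ANKRD1 on the other strand and stood at 5.89 FPKM in DMSO against 6.19 FPKM in JNJ-7706621, giving a ratio of 1.05 (0.940 to 1.17). HCFC1R1, 0.237 kb from TNFRSF12A on the other strand, was lower, at 22.2 and 14.1 FPKM, a ratio of 0.633 (0.563 to 0.712). DDAH1, 2.40 kb from CCN1 on the other strand, was higher, with a ratio of 1.35 (1.2 to 1.51). The antisense gene AL132780.2, 0.056 kb from AJUBA, had a ratio of 0.724 (0.579 to 0.904), and HNRNPUL1, 0.73 kb from AXL on the same strand, one of 0.748 (0.728 to 0.769). Of the exon length of CCN2, 8.34% is shared with exons of other genes, and of any other target at most 4.94%. Whether counting used strand is not given in the sources used here.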

How the data were processed

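Per the file headers, the deposited values are FPKM per gene, made by the authors. According to the submitters' processing notes hg38 and edgeR were used, with no version or role named. Aligner, counter, annotation release and use of strand: not given in the sources used here. Of its columns, the 2 that match the labels entered, and 2 others, second replicates by their names, match no sample described here and were not used here. Reads and library totals were recovered from the whole-number steps of the FPKM values with exon lengths of GENCODE release 29 (values whole within 0.0001 reads, lengths of 0.25 to 4 times the annotated one). This gave reads for 27805 of 28014 annotated genes above 0, adding up to 99.7% of each total. The 10 target genes had lengths within 1.57% of the annotated ones. Ratio intervals are exact 95% Clopper-Pearson intervals, conditional on the reads of both libraries, and level intervals are exact Poisson intervals. They cover counting error only. The floor is 3 reads. Differences are on the log2(FPKM + 1) scale, which understates those of low genes. Calculations used Python 3.11.15, scipy 1.17.1 and statsmodels 0.14.6 and were tried on simulated libraries. Those drew Poisson reads and took the true exon lengths as the annotated ones. They therefore test neither lengths that differ from the annotation nor spread between cultures.

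The targets and all lists were chosen with earlier results of these data known. Named were all 10 targets, YAP1, WWTR1, the TEAD genes, LATS1, STK3, STK4, NF2, up to 5 measured members of each other list with the largest differences, and any gene of the list of ligands, receptors and inhibitors. One gene that this rule takes is not reported here. Markers, neighbours and other relatives are named outside this rule, after their values were seen. Where a symbol had several rows, the row of highest mean level was taken. Alternatives were other pseudocounts, filters and scalings, protein-coding genes only and an exon length trend.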

Additional observations from a re-analysis of the deposited data

How the results depend on the processing

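No paired analysis was possible because 1 library per group was analysed here, which also leaves no replicate to leave out; the 2 columns named as second replicates were not used. The count of targets called 2-fold higher was 1 (ANKRD1) and became 0 with a pseudocount of 5 and with a filter at a mean FPKM of 5, which keeps 5 of the 10 targets and not ANKRD1, with 2 above 0. It stayed 1 under the other 7 alternatives, and 0 targets were called lower under all 9. The log2 difference of ANKRD1 ran from 0.58 (pseudocount 5) to 2.84 (pseudocount 0.1). AMOTL1 was the 1 target whose difference changed sign, from -0.03 to 0.04 with the exon length trend taken off. The median of the targets ran from -0.09 to -0.03. Over all genes, the counts called higher and lower were 316 and 180, and 608 and 409 with a pseudocount of 0.1, 67 and 24 with 5, 145 and 75 with a filter at 5, 714 and 478 after rescaling to a sum of 1000000, and 182 and 63 among protein-coding genes. With a pseudocount of 0.5, 274 were lower. With a filter at 5, the medians of the Hippo regulators and of the ligand list became 0.25 and 0.33. For the AP-1 list they became -0.17, and -0.029 with no filter. The median of the CCN and ankyrin relatives, 0.96 over 3 genes, became 1.44 and 0.40 with pseudocounts of 0.1 and 5, 0.021 with no filter and 0.50 after rescaling. Fewer or more genes enter under other filters; beyond that the cause was not tested. The depth limits F3, CCN2 and ANKRD1 most, with 15 to 168 reads a library.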
